A study of Mus musculus with 4 samples.

Results

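The genes described here are the interleukins, the tumour necrosis factor (TNF) superfamily and the receptors of both, without some genes of the interleukin 1 family. They were taken by symbol: every gene with a single symbol that starts with Il and a digit, or that is Tnf, Tnfsf or Tnfrsf with a digit, leaving out Il33, Il1a, Il1b, Il1rn, Il18, Il1rl1, Il1r1 and Il1rap. That gave 81 of the 11138 genes measured, on 176 of 32448 spots. By role they are 35 ligands, 44 receptors or receptor chains, and 2 others, the interleukin 18 binding protein Il18bp and the amino acid oxidase Il4i1. They had been picked out with earlier results of these data known.

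Interleukins and TNF family proteins are the signals that immune and stromal cells pass to each other. Most interleukins bind paired receptor chains that activate Janus kinases and STAT transcription factors, while interleukin 17 receptors and TNF receptors recruit adaptors that lead to NF-kB and MAP kinases. Several receptors of both families carry no signal and act as decoys that bind a ligand and hold it. Endothelial cells are targets of TNF, interleukin 4, interleukin 6 and interleukin 17, and lipopolysaccharide (LPS), from the outer membrane of Gram-negative bacteria, is a classical inducer of Il6 and Tnf in macrophages.

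Cultured mouse SVEC cells, an established endothelial line, were exposed to LPS for 24 h or for 4 h and compared with control cells. RNA of LPS-treated and control cells carried different dyes, Cy3 and Cy5, and shared an oligonucleotide array. Each time has 2 arrays: LPS was in Cy5 on one and in Cy3 on the other, which the labels call a dye reversal. A dose of 50 ng/ml is given for 3 of the arrays and none for the LPS-in-Cy3 array of 4 h, and neither the handling of the control cells nor the number of cultures is given. The arrays of each time were counted as a single RNA pair, which the labels do not state. A time is thus taken as 1 replicate, and no test between LPS and control could be made within a time. Every SD is the spread between 2 arrays taken to hold the same RNA. The table holds log2 ratios of the dyes and no intensities, so the presence of any transcript, endothelial markers included, could not be checked, and faint spots could not be told from bright ones.

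All values are log2 ratios of LPS over control, relative to the median spot of each array, and each pair of array values is given with the array that carried LPS in Cy5 first. This direction is likely and not stated: it rests on the dyes in the labels, with the deposited ratios taken as Cy5 over Cy3. Before any sign was turned, the correlation within a pair was -0.04 over all spots at 24 h and -0.23 at 4 h, which bears only on the arrays running opposite ways, and little on that at 24 h. A gene was counted as higher or lower where the mean of both arrays was at least 2-fold and each array at least 1.5-fold the same way. Most genes had 1 oligonucleotide, printed as 2 adjacent spots. Adjacent spots of these 88 oligonucleotides differed by a median of 0.18 and 0.24 log2 units at 24 h and of 0.16 and 0.22 at 4 h, and by 1 or more in 9, 10, 8 and 9 of them.

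After 24 h with LPS, 1 of the 81 genes passed the rule. It was Tnfrsf11a, which encodes RANK, the receptor of the bone and immune cytokine RANKL, and it was lower. That is 1.23% of the genes, against 2.48% of all genes (1.68% higher and 0.799% lower). The median of the 81 was -0.01 (0.02 for all genes), and 58 of them lay within 0.5 of 0, or 71.6%, against 74.8% of all genes. The count depended on both arrays being used: without the LPS-in-Cy5 array 8 genes were 2-fold higher and 0 lower, and without the LPS-in-Cy3 array 0 were higher and 10 lower. Over all genes those settings gave 771 higher and 311 lower, and 503 higher and 818 lower.

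After 4 h, 6 of the 81 passed the rule, 2 higher and 4 lower, or 7.41% against 14.5% of all genes. The higher ones were the receptor genes Il17rc and Il13ra2. The lower ones were the ligand genes Tnfsf11 (RANKL), Tnfsf13 (APRIL) and Il17a and the receptor gene Tnfrsf4 (OX40). In each direction the share was below that of all genes, 8.74% for higher and 5.77% for lower. Within 0.5 of 0 lay 64 of the 81, or 79%, against 60.3% of all genes. Zero at 4 h is a matter of scale: 25 abundant transcripts such as actin and tubulin genes had a median of 2.08, and when each array was centred on them, 76 of the 81 were lower and 1, Il17rc, higher, as were 9321 and 88 of all genes. That centring moves the mean of both arrays down by 0.15 at 24 h and by 2.05 at 4 h. The abundant transcripts had medians of 0.22 on the LPS-in-Cy5 array and 0.08 on the LPS-in-Cy3 array at 24 h, and of 2.59 and 1.5 at 4 h, and array values between 0 and these fall below 0 with it.

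**Figure D1:**
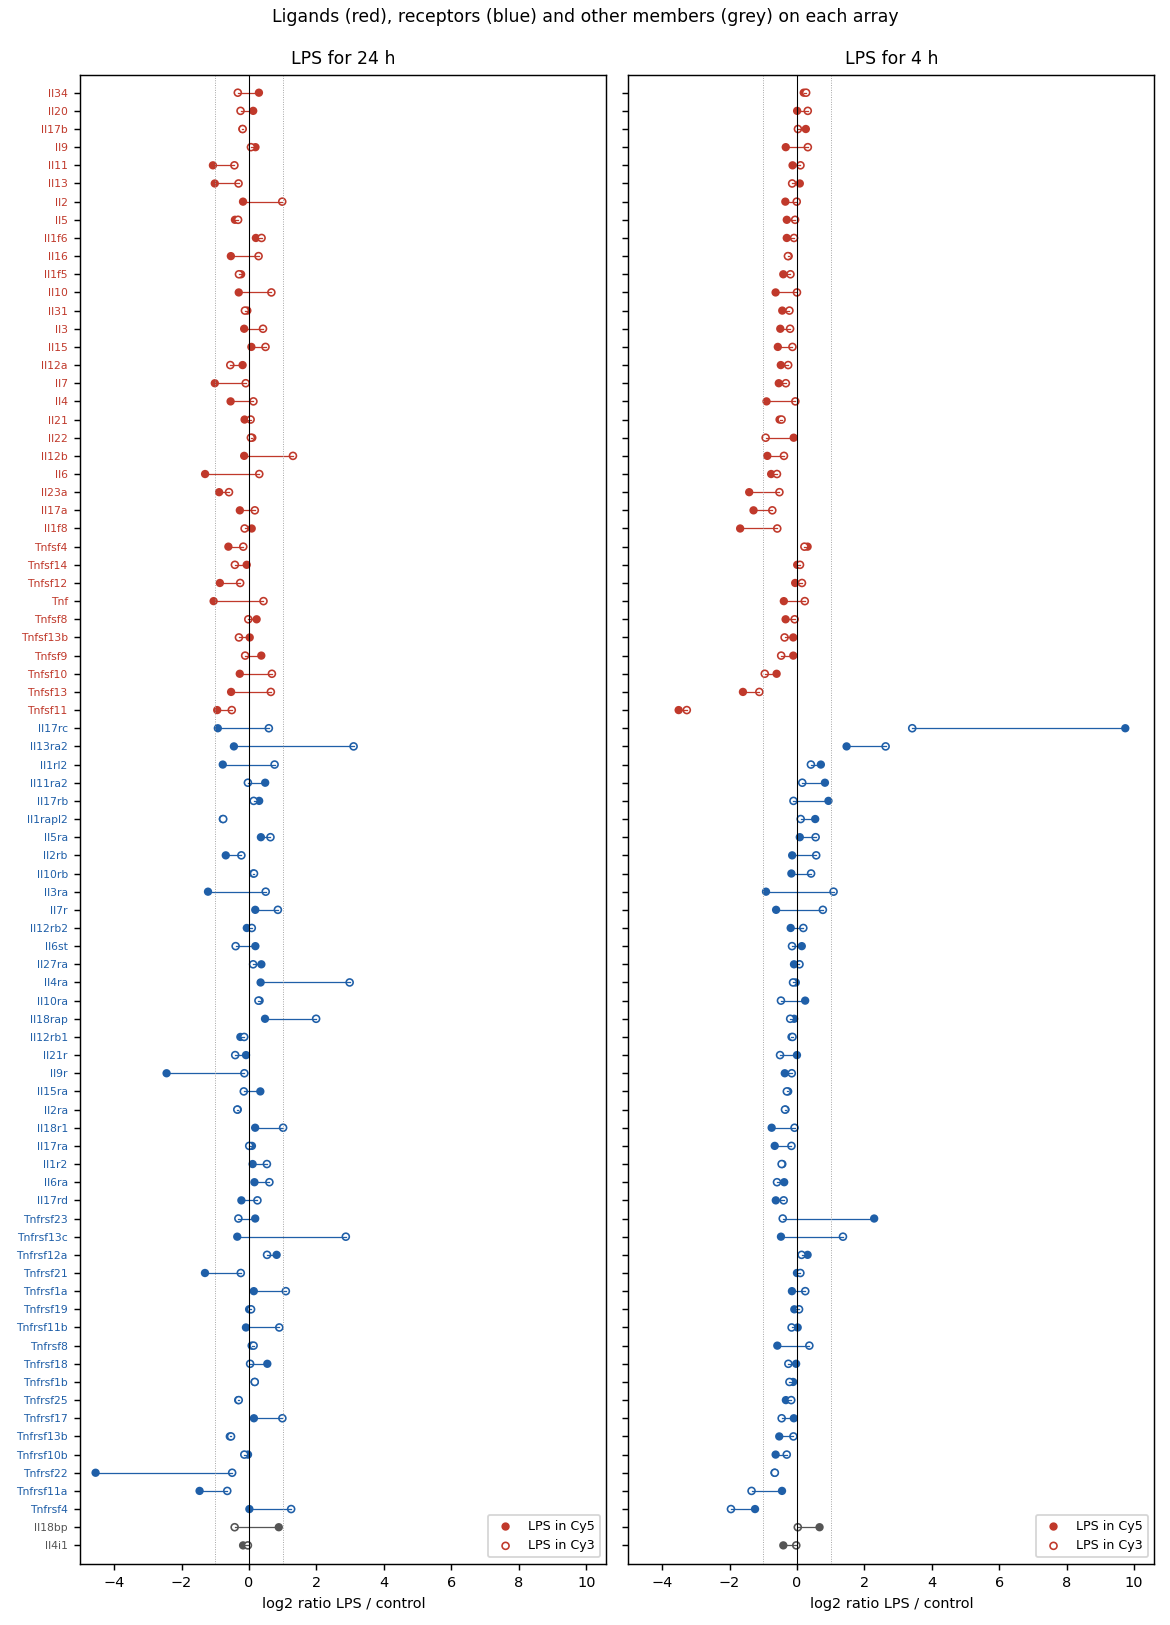
Log2 ratio of LPS over control for each of the 81 genes (rows) at 24 h (left) and 4 h (right), relative to the median spot of the array. Filled points are arrays with LPS in Cy5, open points arrays with LPS in Cy3, joined by a line; dotted lines mark 2-fold. Ligands are red, receptors blue and others grey. Tnfsf11 lies at -3.51 and -3.27 at 4 h, and Il17rc at 9.74 and 3.42.

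Interleukin ligands made up 25 of the genes. At 24 h none passed the rule, their median was -0.06, and 9 lay below 0 on both arrays (25.9% of all genes did) and 4 above (30.4%). At 4 h 1 passed, Il17a, the median was -0.33, and 19 of 25 lay below 0 on both arrays, against 32% of all genes, with 3 above on both (31.2%). The 19 include Il10, whose value on the LPS-in-Cy3 array came to 0 from spots at 0.43 and -0.43. The means of the 25 ran between -0.75 and 0.58 at 24 h and between -1.13 and 0.24 at 4 h. Il17a and Il1f8 apart, every 4 h mean was within 1 of 0.

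Il6, a fever and acute phase cytokine that endothelial cells can secrete, lay at -1.30 and 0.30 at 24 h and at -0.77 and -0.59 at 4 h. The means were -0.50 ± 1.14 and -0.68 ± 0.12 (SD, 2 arrays), neither past the rule, and the 24 h arrays stood on opposite sides of 0. The -1.30 came from spots at -0.42 and -2.18. Il17a, the lead cytokine of Th17 cells, lay at -0.27 and 0.17 at 24 h and at -1.29 and -0.73 at 4 h. Its 4 h mean of -1.01 ± 0.39 was just past the 2-fold line, and scaling the arrays to one spread or quantile normalization took it below. Next to it outside the rule stood Il1f8, an interleukin 36 ligand, at 0.08 and -0.13 at 24 h and at -1.68 and -0.58 at 4 h, which the smaller array value kept out.

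The subunits of interleukin 12 and interleukin 23, cytokines made by myeloid cells, did not pass the rule at either time. Il23a lay at -0.89 and -0.59 at 24 h and at -1.42 and -0.52 at 4 h, below 0 on each array at means of -0.74 ± 0.21 and -0.97 ± 0.63. Il12a was at -0.37 at both times, below 0 on each array. Its adjacent spots on the LPS-in-Cy5 arrays disagreed in sign, at 0.18 and -0.56 at 24 h and at 0.10 and -1.06 at 4 h. Il12b, the chain that both cytokines share, lay at -0.14 and 1.30 at 24 h and at -0.88 and -0.39 at 4 h. Il10, which dampens macrophages, had means of 0.18 ± 0.68 at 24 h and -0.32 ± 0.45 at 4 h, both within their spread of 0.

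Among ligands of the common gamma chain family, Il7, a lymphocyte survival factor of stromal cells, lay at -1.01 and -0.10 at 24 h and at -0.54 and -0.33 at 4 h. Il15, which sustains natural killer cells, was above 0 on both 24 h arrays (0.07 and 0.49) and below on both 4 h arrays (-0.57 and -0.13). Il4 had means of -0.21 and -0.48, Il21 of -0.04 and -0.49 and Il2 of 0.40 and -0.18, at 24 h and 4 h in that order. None of these reached 1.5-fold in the mean. Il11, a gp130 cytokine, lay at -1.07 and -0.43 at 24 h and at -0.13 and 0.10 at 4 h. Il34, a ligand of the macrophage receptor Csf1r, had means of -0.02 and 0.24.

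The promoters of the 3 ligands past the rule at 4 h and of Il6 are shown, since these are the ligands on which the account turns and LPS acts on promoters largely through NF-kB and AP-1. Each is the 250 bases before the gene's start in RefSeq on GRCm38.p6, 5′ to 3′ on the gene's strand: chr14:78308044-78308293 (minus) for Tnfsf11, chr11:69685555-69685804 (minus) for Tnfsf13, chr1:20730655-20730904 (plus) for Il17a and chr5:30012864-30013113 (plus) for Il6. Capitals mark matches on either strand to the NF-kB consensus, to TGANTCA, a loose form of the AP-1 motif, or to the STAT motif TTCNNNGAA. N is any base, and no match shown overlaps another.
Tnfsf11: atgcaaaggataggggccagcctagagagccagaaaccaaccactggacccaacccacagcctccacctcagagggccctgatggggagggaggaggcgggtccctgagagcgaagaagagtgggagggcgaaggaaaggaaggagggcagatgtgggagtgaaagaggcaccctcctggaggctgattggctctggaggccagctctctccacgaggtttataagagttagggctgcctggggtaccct
Tnfsf13: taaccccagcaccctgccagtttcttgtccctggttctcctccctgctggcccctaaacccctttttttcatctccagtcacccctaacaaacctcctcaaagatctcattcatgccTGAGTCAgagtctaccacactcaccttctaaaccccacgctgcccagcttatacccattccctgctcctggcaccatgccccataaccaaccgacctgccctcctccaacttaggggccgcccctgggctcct
Il17a: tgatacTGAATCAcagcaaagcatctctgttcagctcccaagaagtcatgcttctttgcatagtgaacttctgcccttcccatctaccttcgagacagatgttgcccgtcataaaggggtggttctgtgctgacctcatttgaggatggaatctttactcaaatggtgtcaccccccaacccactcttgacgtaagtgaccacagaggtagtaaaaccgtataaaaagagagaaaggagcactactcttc
Il6: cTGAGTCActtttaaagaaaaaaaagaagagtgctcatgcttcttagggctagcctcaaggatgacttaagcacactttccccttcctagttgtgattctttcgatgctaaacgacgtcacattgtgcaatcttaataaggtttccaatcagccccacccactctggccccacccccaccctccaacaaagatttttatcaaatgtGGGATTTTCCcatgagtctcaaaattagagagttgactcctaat
The Il6 window holds an NF-kB match whose first base is 44 bases before the start and an AP-1 match at the far end of the window. Tnfsf13 has 1 AP-1 match, TGAGTCA, 133 bases before the start. Il17a has 1 match to the loose letters, TGAATCA, 244 bases before its start. The Tnfsf11 window has none of the 3 motifs in these letters. Promoters were in the table for 62 of the 81 genes. The loose AP-1 letters stood in 14 of their 74 windows (18.9%, against 6.75% of 32851 windows of all genes). The STAT letters stood in 9 (12.2% against 7.02%) and the NF-kB consensus in 5 (6.76% against 7.25%).

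TNF superfamily ligands numbered 10. None passed the rule at 24 h, where the median was -0.19. At 4 h Tnfsf11 and Tnfsf13 were lower, none was higher, and the median was -0.22. The 2 of 10 passing at 4 h compare with 14.5% of all genes. Below 0 on both arrays were 4 of 10 at 24 h (25.9% of all genes) and 6 of 10 at 4 h (32%), and above on both 0 (30.4%) and 2 (31.2%).

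Tnfsf11 encodes RANKL, which drives osteoclast formation and lymph node development through RANK. It had the lowest 4 h mean of the 81 genes. Its arrays gave -0.94 and -0.51 at 24 h, against -3.51 and -3.27 at 4 h. At 4 h all 4 spots lay between -3.51 and -3.12, for a mean of -3.39 ± 0.17, or 10.5-fold lower in LPS-treated cells. At 24 h the mean was -0.73 ± 0.31, still below 0 on all 4 spots but short of the rule.

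Tnfsf13 encodes APRIL, a B cell and plasma cell survival factor. The arrays gave -0.53 and 0.65 at 24 h and -1.60 and -1.12 at 4 h. The 4 h mean was -1.36 ± 0.34, or 2.57-fold lower, with every spot below 0, while the 24 h arrays lay on opposite sides of 0. The related B cell factor Tnfsf13b (BAFF) was close to 0, with means of -0.14 and -0.24.

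Tnf itself, the founding member and a strong activator of endothelium, lay at -1.05 and 0.43 at 24 h and at -0.39 and 0.23 at 4 h. Arrays of either time stood on opposite sides of 0, so no direction could be given (means of -0.31 ± 1.05 and -0.08 ± 0.44). Tnfsf10, the death ligand TRAIL, was at -0.27 and 0.68 at 24 h and at -0.60 and -0.95 at 4 h, a 4 h mean of -0.78 ± 0.25 that fell short of 2-fold. The T cell costimulators Tnfsf4, Tnfsf8 and Tnfsf9, with Tnfsf12 (TWEAK) and Tnfsf14 (LIGHT), had means between -0.56 and 0.13 at 24 h and between -0.29 and 0.27 at 4 h.

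Interleukin receptor genes numbered 27. At 24 h none passed the rule, the median was 0.09, and 12 were above 0 on both arrays and 6 below (44.4% and 22.2%, against 30.4% and 25.9% of all genes). At 4 h 2 were higher and none lower (7.41% called, against 14.5%), the median was -0.01, and 6 were above and 11 below (22.2% and 40.7%, against 31.2% and 32%). The median of all 44 receptor genes was 0.10 at 24 h and -0.09 at 4 h, where the 35 ligands had -0.09 and -0.30. Centred on the abundant transcripts the receptor median at 24 h was -0.05, on the other side of 0.

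Il17rc, a chain of the receptor for interleukins 17A and 17F, had the highest 4 h mean of any gene on the arrays. Its arrays gave -0.93 and 0.59 at 24 h, against 9.74 and 3.42 at 4 h. The 4 h mean was 6.58 ± 4.47, or 95.5-fold higher, and the arrays differed by more than 6 log2 units, so the size is loose although all 4 spots were at 3.0 or more. Adjacent spots were near each other on each array, at 10.2 and 9.28 and at 3.84 and 3.0. Its partner chain Il17ra did not move with it, at 0.09 and 0.01 at 24 h and -0.66 and -0.16 at 4 h, and Il17rb and Il17rd had means of 0.22 and 0.01 at 24 h and of 0.42 and -0.51 at 4 h.

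Il13ra2 encodes a receptor that binds interleukin 13 tightly and is known mainly as a decoy. It lay at -0.45 and 3.10 at 24 h and at 1.47 and 2.63 at 4 h. The 4 h mean of 2.05 ± 0.82 passed the rule, but 2 spots of the same oligonucleotide disagreed, at -1.01 and 3.96 on one array and 0.20 and 5.06 on the other. At 24 h the mean of 1.33 ± 2.51 rested on the LPS-in-Cy3 array. With centring on the abundant transcripts the 4 h mean came to 0.00.

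Il4ra, the signalling chain for interleukins 4 and 13, had the highest 24 h mean of the 81 genes. Its arrays gave 0.34 and 2.98 at 24 h, against -0.03 and -0.12 at 4 h. The 24 h mean of 1.66 ± 1.87 missed the rule on the first array, and all 4 spots at 24 h were above 0, at 0.30, 0.39, 2.39 and 3.58. The interleukin 18 receptor chains behaved alike in sign: Il18rap lay at 0.47 and 1.99 at 24 h and at -0.08 and -0.20 at 4 h, and Il18r1 at 0.18 and 1.01 and at -0.75 and -0.07. Neither passed the rule at either time, and the 1.99 of Il18rap came from spots at 3.25 and 0.73.

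In the interleukin 6 receptor, the binding chain Il6ra had means of 0.38 ± 0.31 at 24 h and -0.49 ± 0.15 at 4 h, and the signalling chain Il6st (gp130) -0.10 ± 0.41 and 0.00 ± 0.20. The decoy receptor Il1r2 had means of 0.32 and -0.44, Il10rb, a shared chain of the interleukin 10 family receptors, of 0.14 and 0.13, and Il15ra, which presents interleukin 15, of 0.09 and -0.28. Il5ra, the eosinophil growth factor receptor, was above 0 on all 4 arrays, at 0.35 and 0.64 at 24 h and 0.08 and 0.55 at 4 h, the 4 h values being below 0 when centred on the abundant transcripts. Il9r lay at -2.44 and -0.14 at 24 h, and the first of these came from 1 spot at -4.87 beside 1 at -0.01. Il1rl2, the interleukin 36 receptor, Il1rapl2, Il2rb and Il3ra had 24 h means between -0.77 and -0.01 and 4 h means between 0.08 and 0.56. Of these only Il1rapl2 had both arrays of each time on the same side of 0. Il3ra lay at -1.22 and 0.50 at 24 h and at -0.92 and 1.09 at 4 h. Il1rl2 lay at -0.78 and 0.76 at 24 h, and Il2rb at -0.14 and 0.57 at 4 h.

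TNF receptor superfamily genes numbered 17. At 24 h Tnfrsf11a was lower and none higher, with a median of 0.11, 8 above 0 on both arrays and 6 below (47.1% and 35.3%, against 30.4% and 25.9% of all genes). At 4 h Tnfrsf4 was lower and none higher, with a median of -0.14, 1 above on both arrays and 9 below (5.88% and 52.9%, against 31.2% and 32%). The 1 of 17 called at each time was 5.88%, against 2.48% of all genes at 24 h and 14.5% at 4 h. Neither receptor of TNF passed the rule. Tnfrsf1b lay at 0.17 on both 24 h arrays and at -0.11 and -0.22 at 4 h, and Tnfrsf1a at 0.14 and 1.09 at 24 h and -0.15 and 0.25 at 4 h. The 1.09 included a spot at 2.70 whose neighbour of the same oligonucleotide was at 0.21.

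Tnfrsf4 encodes OX40, a costimulatory receptor best known from activated T cells. The arrays gave 0.01 and 1.25 at 24 h, against -1.24 and -1.96 at 4 h. All 4 spots were between -2.09 and -0.93 at 4 h, for a mean of -1.60 ± 0.50, or 3.03-fold lower. At 24 h the mean was 0.63 ± 0.88. Its ligand Tnfsf4 lay at -0.61 and -0.17 at 24 h and at 0.32 and 0.22 at 4 h.

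Tnfrsf11a, the receptor of the RANKL ligand, stood below 0 on all 4 arrays, at -1.47 and -0.64 at 24 h and -0.44 and -1.35 at 4 h. The means were -1.06 ± 0.58 at 24 h, 2.08-fold lower, and -0.90 ± 0.64 at 4 h, short of the rule. Its 2 oligonucleotides gave different pictures. The first was below 0 at each of its 8 spot values, with means of -1.03 ± 0.22 at 24 h and -1.60 ± 1.01 at 4 h, both past the rule. The second had means of -1.08 ± 0.94 and -0.19 ± 0.27, with spots at 0.21 and -3.71 on the LPS-in-Cy5 array of 24 h. Both of its spots on the LPS-in-Cy5 array of 4 h were exactly 0. With exact zeros as not measured, the 4 h mean of Tnfrsf11a was -1.12 and passed the rule. If every spot had to lie the same way, an alternative chosen after seeing the data, no gene of the 81 passed at 24 h (1.62% of all genes did) and 5 did at 4 h (12.2%), Il13ra2 being the one lost. The soluble RANKL decoy Tnfrsf11b (osteoprotegerin) lay at -0.09 and 0.90 at 24 h and at 0.02 and -0.16 at 4 h.

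**Figure D2:**
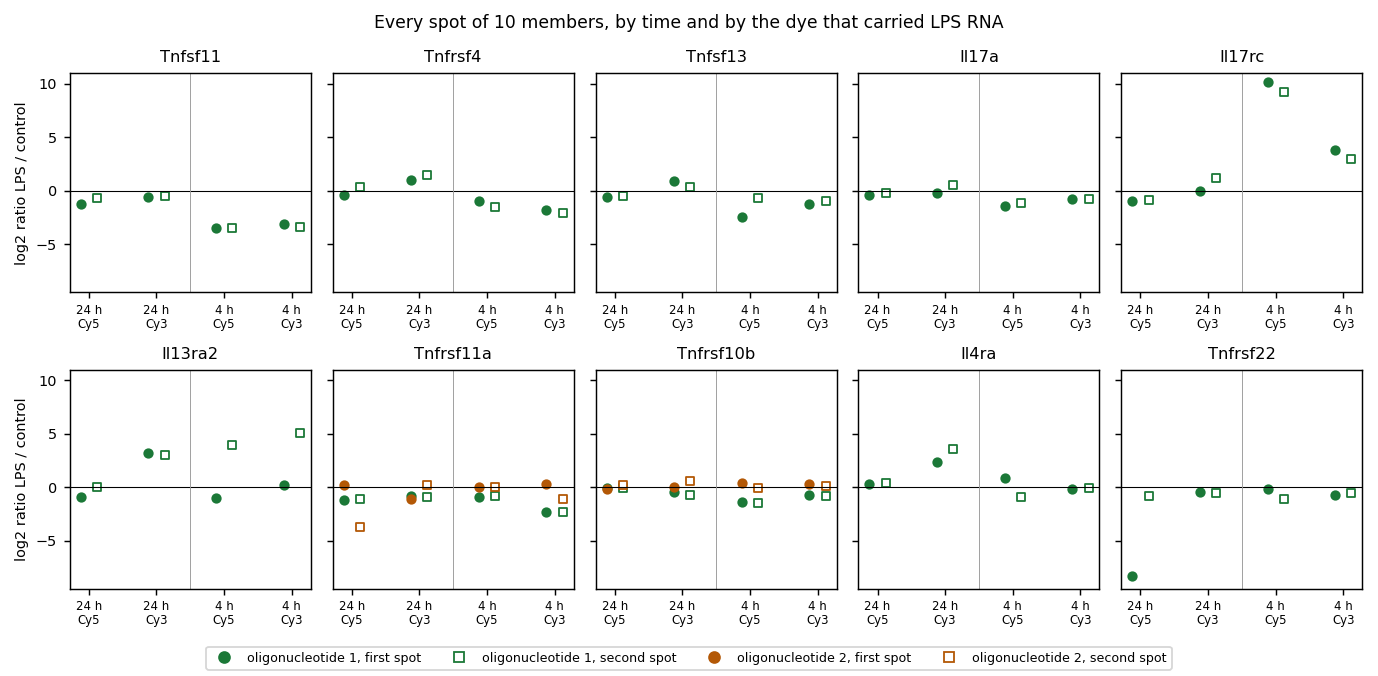
Log2 ratio of LPS over control for every spot of 10 genes. Each panel has the 24 h arrays left and the 4 h arrays right, with the dye that carried LPS RNA named under the axis. Circles and squares are the adjacent spots of an oligonucleotide, and orange marks a second oligonucleotide. The spots of Tnfsf11 at 4 h lie between -3.51 and -3.12, while those of Il13ra2 lie between -1.01 and 5.06.

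Tnfrsf12a, the TWEAK receptor Fn14 of injured tissue, was 1 of 2 genes above 0 on all 4 arrays, the other being Il5ra (2.47% of the 81, against 11.9% of all genes). It lay at 0.82 and 0.54 at 24 h and at 0.32 and 0.14 at 4 h, with means of 0.68 ± 0.20 and 0.23 ± 0.13 that did not reach the rule; centred on the abundant transcripts, the 4 h values were below 0. Below 0 on all 4 arrays were 16 genes (19.8%, against 10.3%), among them Tnfsf11, Tnfrsf11a, Il23a, Il12a, Il7 and Tnfrsf22. Tnfrsf13c, the BAFF receptor of B cells, lay at -0.35 and 2.87 at 24 h and -0.47 and 1.36 at 4 h, the LPS-in-Cy3 array being the higher at both times. Tnfrsf21 (death receptor 6) had means of -0.77 ± 0.75 and 0.05 ± 0.07.

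The mouse decoy receptors for TRAIL, Tnfrsf22 and Tnfrsf23, are close relatives whose probes may share signal. Tnfrsf22 had the lowest 24 h mean of the 81 genes, at -2.52 ± 2.86, and did not pass the rule. Its arrays gave -4.55 and -0.50 at 24 h and -0.67 and -0.66 at 4 h, and the first value came from 1 spot at -8.32 beside 1 at -0.78. Tnfrsf23 lay at 0.18 and -0.32 at 24 h and at 2.29 and -0.42 at 4 h, where 1 spot stood at 4.58.

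Of the 81 genes, 7 had 2 oligonucleotides, and in several these differed in sign. At 4 h the means of the first and second were -1.12 and 0.18 for the TRAIL death receptor Tnfrsf10b, -1.03 and 0.75 for the costimulator Tnfrsf18 (GITR), -0.70 and 0.68 for Tnfrsf19, and -0.42 and 0.51 for Tnfrsf1a. In these 4 genes the mean of the first oligonucleotide was below 0 and that of the second above it. The second of Tnfrsf18 had spots at 0.00 and 1.79 on the LPS-in-Cy5 array and at -2.72 and 3.94 on the other. The first of Tnfrsf1a had its arrays on opposite sides of 0, at -0.89 and 0.05. The 2 for Il11ra2, which has a close paralog whose transcripts its probes may read, had 4 h means of 0.06 and 0.92. For Tnfrsf10b and Tnfrsf18 the first passed the rule by itself, and the gene mean, at -0.47 and -0.14, did not. The second oligonucleotide of Tnfrsf1a was above 0 on all 4 arrays, at 0.65 and 0.73 at 24 h and 0.59 and 0.44 at 4 h. Which transcript form each one reads is not given, and counted singly, 1 of 88 oligonucleotides passed at 24 h (2.75% of all did, 0.948% lower) and 9 at 4 h (14.7%, 5.83% lower), 7 of them lower.

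**Figure D3:**
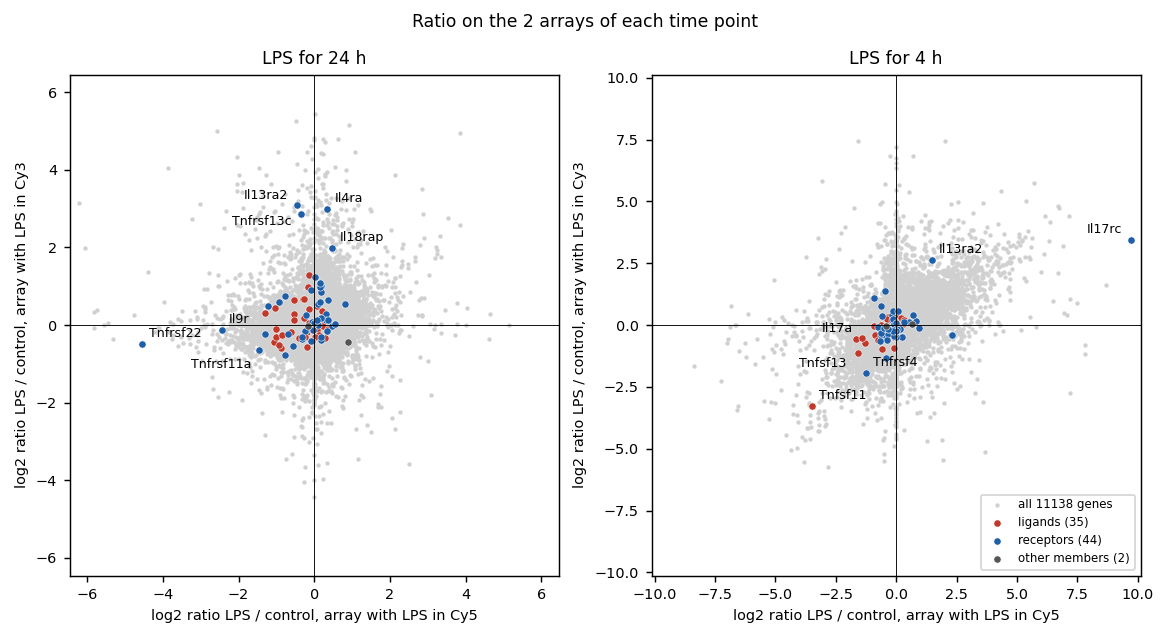
Log2 ratio of LPS over control on the array with LPS in Cy3 (vertical) against the array with LPS in Cy5 (horizontal), at 24 h (left) and 4 h (right). Grey points are all 11138 genes, red ligands, blue receptors and dark grey other members. At 4 h Tnfsf11, Tnfrsf4 and Tnfsf13 lie in the lower left and Il17rc far right, and at 24 h Il13ra2, Il4ra and Tnfrsf13c are high on the vertical axis and near 0 on the horizontal one.

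Between the times, 24 h exceeded 4 h in 8 of the 81 genes and was below it in 2, by the demand that the means differ by at least 1 and that both arrays of a time lie beyond both of the other. This was 9.88% and 2.47%, against 8.2% and 9.99% of all genes. The largest gains were those of Tnfsf11, with a 24 h mean of -0.73 against -3.39 at 4 h (difference 2.66), of Tnfrsf4, with 0.63 against -1.60 (2.23), and of Il4ra, with 1.66 against -0.08 (1.74). Tnfsf13 (1.42), Il18rap (1.38), Il12b (1.21), Il1f8 (1.11) and Il18r1 (1.01) followed. Lower at 24 h were Il17rc, at -0.17 against 6.58, and Il1rapl2, a brain relative of interleukin 1 receptors, at -0.77 ± 0.01 against 0.33 ± 0.30. Both arrays lay above 0 at 24 h and below 0 at 4 h in 13 genes (16%, against 7.58% of all genes), and the other way round in 4 (4.94% against 6.5%). In 5 of the 8 genes that gained, the 4 h mean was below -0.6 and the 24 h mean nearer 0 or, for Tnfrsf4, Tnfsf13 and Il12b, above it. Without the LPS-in-Cy5 array of 24 h the counts were 16 and 2, and without the LPS-in-Cy3 array of 24 h 3 and 9. With centring on the abundant transcripts they were 72 and 1. Over all genes, in the same order, they were 1574 and 1405, 923 and 1582, and 8978 and 95.

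The signalling genes under these receptors were counted as a list. Of 22 measured Janus kinase, STAT and SOCS pathway genes, 1 was higher and 0 lower at 24 h (4.55% called, against 2.48% of all genes), and 2 were higher and 2 lower at 4 h (18.2% against 14.5%). Stat2, the interferon signal carrier, was the one higher at 24 h, at 1.41 ± 0.17, and it lay at 1.14 ± 0.66 at 4 h, where it was -0.91 with centring on the abundant transcripts. Socs3, the feedback inhibitor of gp130 receptors, was 18.1-fold higher at 4 h, at 5.13 and 3.22, and near 0 at 24 h, at -0.69 and 0.67. Lower at 4 h were Jak3, the kinase of the common gamma chain (-2.63 ± 0.41), and Stat5a (-1.29 ± 0.84), whose 24 h means were -0.20 and -0.06.

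Of 26 TNF receptor signalling genes, 1 was higher at 24 h (3.85% called, against 2.48% of all genes), and 1 was higher and 1 lower at 4 h (7.69% against 14.5%). Traf5, an adaptor of OX40 and related receptors, lay at 1.36 and 1.61 at 24 h, against -0.34 and -0.14 at 4 h. At 4 h the kinase gene Ikbkb was higher at 1.26 ± 0.05 (-0.79 with centring on the abundant transcripts), and Tab3 lower at -1.70 ± 0.06. Of 39 related cytokine and receptor genes with other symbols, none passed at 24 h and 2 at 4 h (5.13%, against 14.5% of all genes). At 4 h Adam17, the protease that sheds TNF and several receptors, was higher at 1.18 ± 0.41 (-0.86 with that centring), and Cd27, a TNF receptor family member of lymphocytes, was lower at -1.54 ± 0.10. Medians of these lists, in the order given, came to -0.06, 0.05 and 0.09 at 24 h and to -0.02, -0.24 and -0.22 at 4 h, beside 0.02 and 0.00 for all genes.

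The ligands were set beside transcripts that endothelial cells are not known for. At 24 h 13 of 35 ligands lay below 0 on both arrays (37.1%, median -0.09), against 7 of 33 transcripts of unrelated tissues such as liver, pancreas and muscle (median 0.11), 3 of 9 T and natural killer cell markers (median 0.25), 0 of 4 B cell markers (median 0.07) and 3 of 8 myeloid markers (median -0.06). At 4 h 25 of 35 ligands did (71.4%, median -0.30), against 19 of 33 transcripts of unrelated tissues (57.6%, median -0.32), 7 of 9 T and natural killer cell markers (median -0.48), 4 of 4 B cell markers (median -0.93) and 2 of 8 myeloid markers (median 0.06). The 25 ligands at 4 h include Il10, whose value on the LPS-in-Cy3 array came to 0. Over all genes, 25.9% lay below 0 on both arrays at 24 h and 32% at 4 h. For unrelated tissues, T and natural killer cells, B cells and myeloid cells the shares were 21.2%, 33.3%, 0% and 37.5% at 24 h. At 4 h these shares were 57.6%, 77.8%, 100% and 25%. At 4 h the ligands, the lymphocyte markers and the transcripts of unrelated tissues all had medians below 0. Markers of the endothelial line and of mural cells and fibroblasts were counted as well. At 4 h 9 of 12 endothelial markers lay within 0.5 of 0 (75%, against 60.3% of all genes). Of 12 endothelial markers 0 passed the rule at 24 h and 2 were lower at 4 h (16.7%, against 14.5% of all genes; medians -0.06 and 0.03), among them Cdh5, the junction protein VE-cadherin, at -0.17 and 0.05 at 24 h and -4.97 and -1.98 at 4 h. Of 8 mural and fibroblast markers 1 was higher at 24 h (2.48% of all genes were called), and 4 were higher and 1 lower at 4 h (62.5% against 14.5%; medians 0.18 and 0.62), the 4 higher ones at 4 h being below 0 when centred on the abundant transcripts. The part of these lists in the ligand and receptor values was not tested, and the table has no intensities with which to match genes by abundance.

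**Figure D4:**
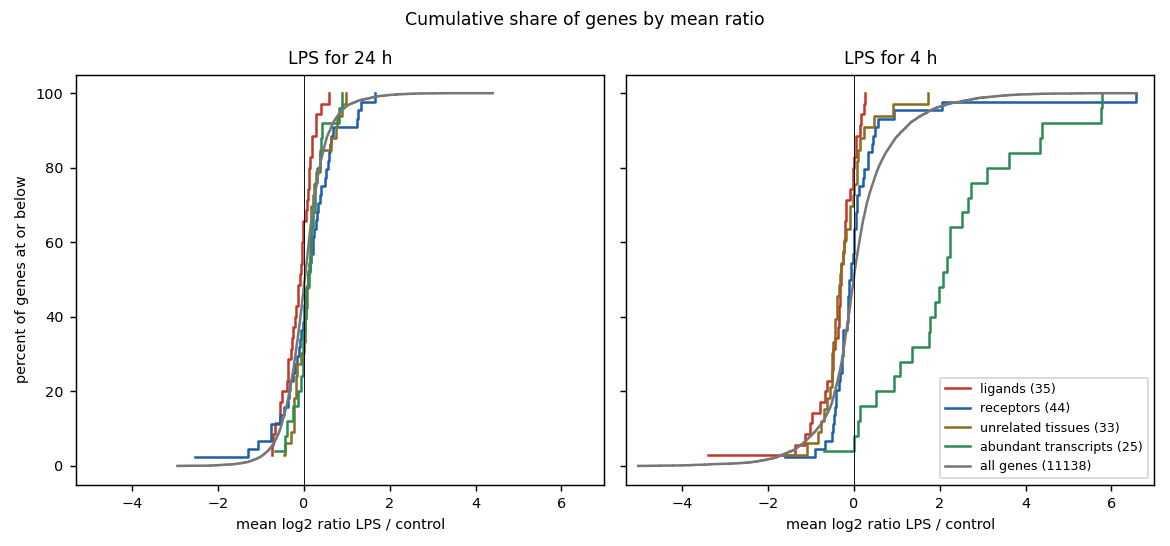
Percent of genes (vertical) at or below a given mean log2 ratio of LPS over control (horizontal) at 24 h (left) and 4 h (right), for ligands, receptors, 33 transcripts of unrelated tissues, 25 abundant transcripts and all genes. At 4 h ligands and transcripts of unrelated tissues run close together, with medians of -0.30 and -0.32, and abundant transcripts lie far to the right, with a median of 2.08.

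A ratio shared by both times was asked for with limma on the 2 pair means, with 1 residual degree of freedom. It called 0 of 81 genes and 0 of 11138 at an adjusted p under 0.05 (0%), and 3 of the 81 had an unadjusted p under 0.05 (4.61% of all genes did). These were Il13ra2 at a mean of 1.69, Tnfrsf11a at -0.98 and Il23a at -0.85, each with a limma adjusted p of 0.76. The fits on all 4 arrays, with and without a dye term, also called 0.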

How the data were processed

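Expression in SVEC cells was measured on 4 arrays with 2 colours. The authors deposited log2 ratios of the 2 dyes, a unit settled from the values, which are centred on 0. With the sign left off, their powers of 2 are multiples of 0.01 in 99.96% of spots or more. Scanner, background correction, normalization and genome build were not given in the sources used here. Of 32448 spots, 24344 carried 1 gene symbol in the platform annotation, 98 several and 8006 none; the first kind gave 12131 oligonucleotides and 11138 genes.

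Each array was centred on its median, arrays with LPS in Cy3 were turned in sign, spots of a gene were averaged, then both arrays of a time. A spot value of exactly 0 was set on neither side. Il10 on the LPS-in-Cy3 array of 4 h, with spots at 0.43 and -0.43, averaged to 0 but was counted as below 0. Values were computed with pandas 2.3.3 and the shared fit with limma 3.58.1 (lmFit, eBayes, Benjamini-Hochberg over all genes). Both steps were run on simulated arrays with known changes. Only the 2-fold rule had to pass a recovery threshold there, and none was set for the shared fit. The table used here holds no intensities, and the number of arrays limits precision. Promoter windows came from RefSeq (GRCm38.p6).

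The members and lists were chosen with earlier results of these data known. Genes were named by a rule: those past the 2-fold rule, the 8 highest and 8 lowest means at each time, up to 6 differences each way, and a fixed list; the others named here, namely Il2, Il4, Il21, Il17rd, Il1r2, Il2rb, Il3ra, Il5ra, Tnfsf4, Tnfsf8, Tnfsf9, Tnfsf12, Tnfsf13b, Tnfsf14, Tnfrsf18 and Tnfrsf19, and the signalling and marker genes, were chosen after their values were seen. Of the fixed list, Il2rg, Il13ra1, Tnfsf15, Tnfsf18 and Tnfrsf9 were not analysed here. Alternatives were other centring, scaling, thresholds and spot summaries, exact zeros as not measured, and leaving out each array.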

Additional observations from a re-analysis of the deposited data

Results flagged for a closer look

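In 13 of the 81 genes both arrays lay above 0 at 24 h and below 0 at 4 h (16%, against 7.58% of all genes), and in 4 both lay below 0 at 24 h and above 0 at 4 h (4.94% against 6.5%). The difference between the times was not tested in any of them, since each time was counted as 1 RNA pair. Of the genes named here, the difference of the means, 24 h minus 4 h, was 2.23 for Tnfrsf4, 1.74 for Il4ra, 1.38 for Il18rap, 1.01 for Il18r1, 0.87 for Il6ra, 0.63 for Il15, 0.46 for Il17ra and 0.34 for Tnfrsf1b, and it was -1.1 for Il1rapl2. For Tnfrsf4 the smaller 24 h array value was 0.01 and for Il17ra 0.01, so the sign at 24 h rests on values next to 0. The same holds at 4 h for Il4ra and Il18r1. On the LPS-in-Cy5 array Il4ra lay at -0.03, from spots at 0.88 and -0.95. On the LPS-in-Cy3 array Il18r1 lay at -0.07, from spots at -0.21 and 0.07. The Il6ra spots on that array were at -1.23 and 0.04.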

How the results depend on the processing

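No paired analysis was possible because the labels number no replicates and each time was counted as 1 RNA pair. At 24 h the count of 1 became 3 with quantile normalization, 15 at a 1.5-fold mean, 0 at a 3-fold mean and 7 with the 2-fold mean alone. It became 0 with every spot the same way and 0 with the reversed array kept as deposited. With either array left out it was 8 to 10, a single array having no second one beside it. Over all genes the higher and lower counts went from 187 and 89 to 411 and 148 with quantile normalization. They were 976 and 736 at a 1.5-fold mean, 73 and 15 at a 3-fold mean, and 388 and 280 with the 2-fold mean alone. With every spot the same way they were 130 and 50, and with the reversed array kept as deposited 55 and 134. With either array left out they were 771 and 311 or 503 and 818. At 4 h the count of 6 became 77 after centring on abundant transcripts, a shift of 2.05 in the mean of both arrays. It became 13 at a 1.5-fold mean, 1 (Il3ra) with the reversed array kept as deposited, and 8 to 9 with either array left out. With exact zeros as not measured it became 7, Tnfrsf11a being the gene added. Over all genes the 4 h counts went from 973 higher and 643 lower to 88 and 9321 after that centring. They were 1846 and 1428 at a 1.5-fold mean, and 105 and 99 with the reversed array kept as deposited. With either array left out they were 1376 and 1007 or 1477 and 996, and with exact zeros as not measured 1005 and 668. Il17rc, Tnfsf11 and Tnfrsf4 passed at 4 h under each of these settings except the reversed array kept as deposited, which gives the part of the ratio that goes with the dye. Centring on abundant transcripts gave medians of -0.24 at 24 h and -2.35 at 4 h for ligands and of -0.05 and -2.14 for receptors. With either array left out, the medians were -0.19 to -0.1 at 24 h and -0.39 to -0.19 at 4 h for ligands, and 0.04 to 0.14 and -0.15 to -0.12 for receptors, which had -0.07 at 4 h with arrays scaled to one spread. Genes that differed between the times numbered 73 after that centring and 11 to 18 with an array left out. Over all genes that centring gave 8978 above and 95 below at 24 h, where the main setting gave 913 and 1113. Leaving out an array gave 923 to 1574 above and 1405 to 1582 below over all genes. The shared fit called 0 under each setting run, with 1 to 5 genes at an unadjusted p under 0.05. No gene past the rule changed sign under the centring, scaling, spot and leave-out settings. The cause of these shifts was not tested.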
